A study of Mus musculus with 19 samples.

Results

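The genes Emc2, Magoh, Haus1, Acot13, Clybl, Mgst1, S100a11, Pramef12, Cul4b and Vdac2 are 10 of 38424 entries in the table of 19 mouse embryonic stem cell libraries. They were selected on measured values: each was called higher in 2 or 3 of the retinoic acid knockdowns than in the shared retinoic acid controls. The distance between controls and knockdowns was thus part of the choice and is given as a description. Of the entries tested across the series (14942), 47 were called higher in 2 or 3 of these comparisons (0.315%), and the 10 genes are a selection from those 47. Of the other 37 entries, 21 had both controls as the lowest of 19 libraries. The question put to them was whether the 2 retinoic acid control libraries lay below the other 17 libraries. In 7 of the 10 genes both controls were the lowest of all 19 libraries, against 6.97% of the entries tested.

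The study knocked down RNAs with short hairpin RNAs (sh) during differentiation and asked which genes change. The targets were long non-coding RNAs that are transcribed away from a neighbouring developmental gene, except in shEVX1, which targets the coding gene Evx1. In 7 libraries, 46c cells, a line with a green fluorescent reporter at Sox1, spent 4 days in N2B27, which lacks serum and favours neural cells, and received 5 nM retinoic acid (RA). They carried a control hairpin (2 libraries, called control 1 and control 2 here) or a hairpin labelled shNr2f1as (2), shSox21os (1) or shPou3f3os (2). In the other 12 libraries, cells of the 129S4/SvJae strain were differentiated in serum medium without LIF, the cytokine that holds them undifferentiated. These were CJ7 cells at day 4 (1 control hairpin and 2 shEvx1as libraries), CJ9 cells at day 4 (1 control hairpin and 2 shEVX1), CJ9 cells at day 5 (2 control hairpin and 2 shFendrr) and CJ9 cells at day 6 (1 control hairpin and 1 shLhx1os). The line, the medium, RA and in part the day differ between the RA and the LIF-withdrawal libraries, so these cannot be told apart in any comparison between the 2 kinds of culture. The labels do not tell whether libraries numbered 1 and 2 come from separate cultures, clones or hairpins. The p-values below therefore rest on a spread that may be technical.

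The 10 genes belong to no common pathway. Emc2 is a subunit of the endoplasmic reticulum (ER) membrane protein complex, which inserts tail-anchored and multi-pass proteins into the ER membrane. Magoh is a core protein of the exon junction complex, which marks spliced messenger RNA for export, translation and nonsense-mediated decay. Haus1 is a subunit of augmin, which lets microtubules branch from existing microtubules in the mitotic spindle. Acot13 hydrolyses fatty acyl-CoA, Clybl is a mitochondrial enzyme that removes citramalyl-CoA and protects vitamin B12, and Mgst1 is a membrane-bound glutathione transferase that detoxifies electrophiles and lipid peroxides. Vdac2 is a channel of the outer mitochondrial membrane that also holds the cell-death protein Bak. S100a11 is a small calcium-binding protein that binds annexins, Cul4b is the scaffold of a ubiquitin ligase, and Pramef12 belongs to the PRAME family, which is known from germ cells and early embryos.

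The markers of the cultures and the entries of the targeted RNAs were read first. The summed level of 9 neural progenitor genes was 707 and 563 FPKM (fragments per kilobase, with each library scaled by its mapped fragments) in the RA controls and 507 to 688 FPKM in the RA knockdowns, above the 38.4 to 159 FPKM of the LIF-withdrawal libraries. The summed level of 10 pluripotency genes was lowest of the 7 RA libraries in control 1 (103 FPKM) and highest in control 2 (713 FPKM), with the knockdowns at 135 to 605 FPKM. No entry is named Nr2f1as or Sox21os. The unnamed locus XLOC_006022 beside Nr2f1 stood at 24.7 and 19.3 FPKM in the controls, at 10.2 and 5.98 FPKM in shNr2f1as and at 5.57 FPKM in shSox21os. The entry A830082K12Rik, which spans that locus, was too low to separate them. It stood at 0.343 and 0.135 FPKM in the controls and at 0.147 and 0 FPKM in shNr2f1as. AK039417, which overlaps an end of Sox21, stood at 12.9 and 13.2 FPKM in the controls and 7.77 FPKM in shSox21os, but shNr2f1as replicate 2 (8.71 FPKM) and replicate 1 labelled shPou3f3os (8.20 FPKM) were low as well, while their other replicates held 11.5 and 12.95 FPKM. The annotated entry at the Pou3f3os locus, 2610017I09Rik, stood at 2.40 and 4.13 FPKM under the label shPou3f3os, between the controls at 5.202 and 1.98 FPKM, so it does not separate these libraries from the controls. The unnamed locus XLOC_000124, which overlaps an end of that entry, stood at 3.72 and 3.86 FPKM in them, below the controls at 6.76 and 5.68 FPKM, but it was also below both controls in shNr2f1as (4.09 and 1.4996 FPKM) and shSox21os (2.08 FPKM). Library totals lay between 559050 and 655315 FPKM, with both RA controls inside that range, and the absolute depth of the libraries is unknown.

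The table of promoters from RefSeq (build GRCm38.p6, 250 bases before to 50 after the annotated start) held an entry for 5 of the 10 genes, Magoh, S100a11, Cul4b, Mgst1 and Clybl. Emc2, Haus1, Acot13, Pramef12 and Vdac2 had none. The windows of Magoh (chr4:107879505-107879804, plus strand), S100a11 (chr3:93520246-93520545, plus strand) and Cul4b (chrX:38576147-38576446, minus strand) are shown because these are the genes among the 7 with both controls lowest that had an entry. Capitals mark a match to the motifs searched.
Magoh: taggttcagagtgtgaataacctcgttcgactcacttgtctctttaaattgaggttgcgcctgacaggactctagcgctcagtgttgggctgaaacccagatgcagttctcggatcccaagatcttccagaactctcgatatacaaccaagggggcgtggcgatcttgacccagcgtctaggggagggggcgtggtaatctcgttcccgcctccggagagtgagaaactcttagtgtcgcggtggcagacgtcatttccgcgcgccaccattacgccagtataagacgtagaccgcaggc
S100a11: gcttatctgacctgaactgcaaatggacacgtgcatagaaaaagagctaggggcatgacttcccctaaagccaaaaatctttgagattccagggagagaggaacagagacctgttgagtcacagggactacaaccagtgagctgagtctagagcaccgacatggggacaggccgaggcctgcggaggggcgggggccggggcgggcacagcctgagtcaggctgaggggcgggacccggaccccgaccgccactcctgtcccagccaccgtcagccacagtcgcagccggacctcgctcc
Cul4b: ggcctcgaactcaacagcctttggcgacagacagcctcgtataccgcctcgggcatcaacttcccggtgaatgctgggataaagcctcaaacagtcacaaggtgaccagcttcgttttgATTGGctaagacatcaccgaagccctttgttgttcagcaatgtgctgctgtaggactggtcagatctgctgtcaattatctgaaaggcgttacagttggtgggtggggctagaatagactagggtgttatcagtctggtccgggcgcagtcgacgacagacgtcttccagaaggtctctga
Both strands of the 5 windows were searched for CCGGAAG (bound by ETS factors), GCATGCG (the core bound by NRF1), AAGATGG (YY1), CCAAT (NF-Y), TATAAA (the TATA box) and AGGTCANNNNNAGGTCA (a direct repeat bound by RA receptors). The window of Cul4b held 1 CCAAT match, written on this strand as its reverse complement, and the windows of Magoh and S100a11 held none of the 6 motifs. Clybl held CCAAT and AAGATGG matches and Mgst1 a CCGGAAG match. CCAAT was present in 2 of the 5 windows and in 37.9% of all 27025 promoters. CCGGAAG was present in 9.12% of all promoters, AAGATGG in 6.48%, TATAAA in 14.2%, GCATGCG in 3.64%, and the RA receptor repeat in 2 of the 27025. No motif was present in more than 2 of the 5 windows.

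Emc2 (chr15:43308775-43359323; positions of genes are in mm9) stood at 1.36 FPKM in RA control 1 and 0.391 FPKM in RA control 2. The RA knockdowns held 8.80 and 4.47 FPKM in shNr2f1as, 9.33 FPKM in shSox21os and 11.1 and 8.50 FPKM under the label shPou3f3os. The 12 LIF-withdrawal libraries ran from 10.2 FPKM through a median of 11.7 to 16.045 FPKM. All 17 other libraries thus lay above both controls, and the nearest of them, shNr2f1as replicate 2, was 3.29 times the higher control. The median of the 5 knockdowns was 10.1 times the mean of the controls, the largest such ratio among the 10 genes. Only 1 knockdown library, of shPou3f3os, fell inside the LIF-withdrawal range.

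Magoh (chr4:107552418-107560003) stood at 9.06 and 2.80 FPKM in RA controls 1 and 2. Its knockdown libraries held 40.0 and 17.4 FPKM in shNr2f1as, 28.4 FPKM in shSox21os and 31.1 and 36.2 FPKM under the label shPou3f3os. The LIF-withdrawal libraries ran from 71.2 through a median of 96.0 to 117 FPKM. The 3 kinds of library formed 3 steps without overlap: controls lowest, RA knockdowns in between and LIF-withdrawal libraries highest. The lower step follows from how the genes were chosen. In 13.5% of the entries tested the 5 RA knockdowns lay below the 12 LIF-withdrawal libraries, and the share with all 3 steps is not given. The controls themselves differed 3.23 times, more than the 2.29 times between the lowest and highest knockdown.

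Haus1 (chr18:77996306-78006519) stood at 3.61 and 4.76 FPKM in the RA controls. The knockdowns held 13.4 and 9.78 FPKM in shNr2f1as, 17.6 FPKM in shSox21os and 13.7 and 14.1 FPKM under the label shPou3f3os, and the LIF-withdrawal libraries ran from 9.75 through 18.3 to 27.8 FPKM. All 5 knockdowns lay inside the LIF-withdrawal range, and the controls alone lay below it. The lowest other library, shLhx1os, was 2.05 times the higher control.

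Among the enzymes, Acot13 (chr13:24909824-24923358) stood at 11.4 and 9.67 FPKM in the RA controls. The knockdowns held 23.5 and 28.1 FPKM in shNr2f1as, 27.2 FPKM in shSox21os and 21.1 and 23.4 FPKM under the label shPou3f3os, and the LIF-withdrawal libraries ran from 21.4 through 37.7 to 54.1 FPKM. The controls differed from each other by 1.18 times and the nearest other library was 1.85 times the higher of them. Of the 5 knockdowns, 4 lay inside the LIF-withdrawal range.

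Clybl (chr14:122580916-122801456) is 1 of the 3 genes in which the controls were not the lowest pair. It stood at 8.43 and 5.70 FPKM in the RA controls, and both shEvx1as libraries, at 6.46 and 7.12 FPKM, lay between them. The knockdowns held 28.3 and 25.8 FPKM in shNr2f1as, 31.1 FPKM in shSox21os and 29.9 and 26.2 FPKM under the label shPou3f3os. These 5 values spanned only 1.21 times and lay in the upper part of the LIF-withdrawal range, which ran from 6.46 through 13.5 to 35.9 FPKM. The LIF-withdrawal libraries spanned 5.55 times in Clybl, against 1.57 times in Emc2.

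Mgst1 (chr6:138089058-138105273) stood at 1.69 and 0.667 FPKM in the RA controls, and shEvx1as replicate 2 (1.38 FPKM) lay between them. The knockdowns held 8.42 and 3.96 FPKM in shNr2f1as, 5.96 FPKM in shSox21os and 6.60 and 9.71 FPKM under the label shPou3f3os. The LIF-withdrawal libraries ran from 1.38 through 2.56 to 3.88 FPKM. Mgst1 was the only one of the 10 genes whose 5 RA knockdowns all lay above all 12 LIF-withdrawal libraries, a position held by 17.9% of the entries tested.

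Vdac2 (chr14:22650783-22665101) was the most abundant of the 10 in the RA controls, at 31.3 and 28.1 FPKM. The knockdowns held 58.0 and 54.5 FPKM in shNr2f1as, 56.8 FPKM in shSox21os and 51.6 and 52.1 FPKM under the label shPou3f3os. The LIF-withdrawal libraries ran from 99.1 through 164 to 229 FPKM. As for Magoh, the 3 kinds of library did not overlap, but each was tight: the controls differed 1.11 times and the knockdowns 1.12 times. The knockdown median was 1.83 times the control mean, the smallest such ratio among the 10 genes.

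S100a11 (chr3:93324418-93330210) had the widest range. It stood at 15.7 and 4.55 FPKM in the RA controls. The knockdowns held 112 and 35.1 FPKM in shNr2f1as, 38.2 FPKM in shSox21os and 67.4 and 50.8 FPKM under the label shPou3f3os. The LIF-withdrawal libraries ran from 600 through 1202 to 3028 FPKM. Again there were 3 steps without overlap, and the LIF-withdrawal median was 119 times the control mean and 23.6 times the knockdown median. In 41.1% of the windows of 50 bases along its transcript the sequence also occurs in another gene (GENCODE M21), mainly the processed pseudogenes Gm12854 and Gm7665, so its level depends on how the authors assigned shared fragments and is uncertain. The other 9 genes shared at most 2.41% of their windows, and 6 of the 10 shared none. At least 1 window was shared in 40% of the 10 genes, beside 29.6% of all entries matched to a transcript.

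Cul4b (chrX:35884798-35929373) had the closest controls, at 4.34 and 4.32 FPKM. The knockdowns held 13.5 and 10.4 FPKM in shNr2f1as, 9.38 FPKM in shSox21os and 10.4 and 9.41 FPKM under the label shPou3f3os. The LIF-withdrawal libraries ran from 15.6 through 22.7 to 39.7 FPKM. The 3 kinds of library did not overlap, and the lowest knockdown was 2.16 times the higher control.

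Pramef12 (chr4:143981577-143998367) was low in every RA library, at 0.301 and 0.894 FPKM in the controls. The knockdowns held 2.69 and 3.42 FPKM in shNr2f1as, 3.45 FPKM in shSox21os, and 0.953 and 0.740 FPKM under the label shPou3f3os, 1 of which lay below control 2. It is the only one of the 10 genes in which the controls and the RA knockdowns overlapped. The LIF-withdrawal libraries ran from 5.41 through 15.5 to 39.8 FPKM, above all 7 RA libraries.

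**Figure D1:**
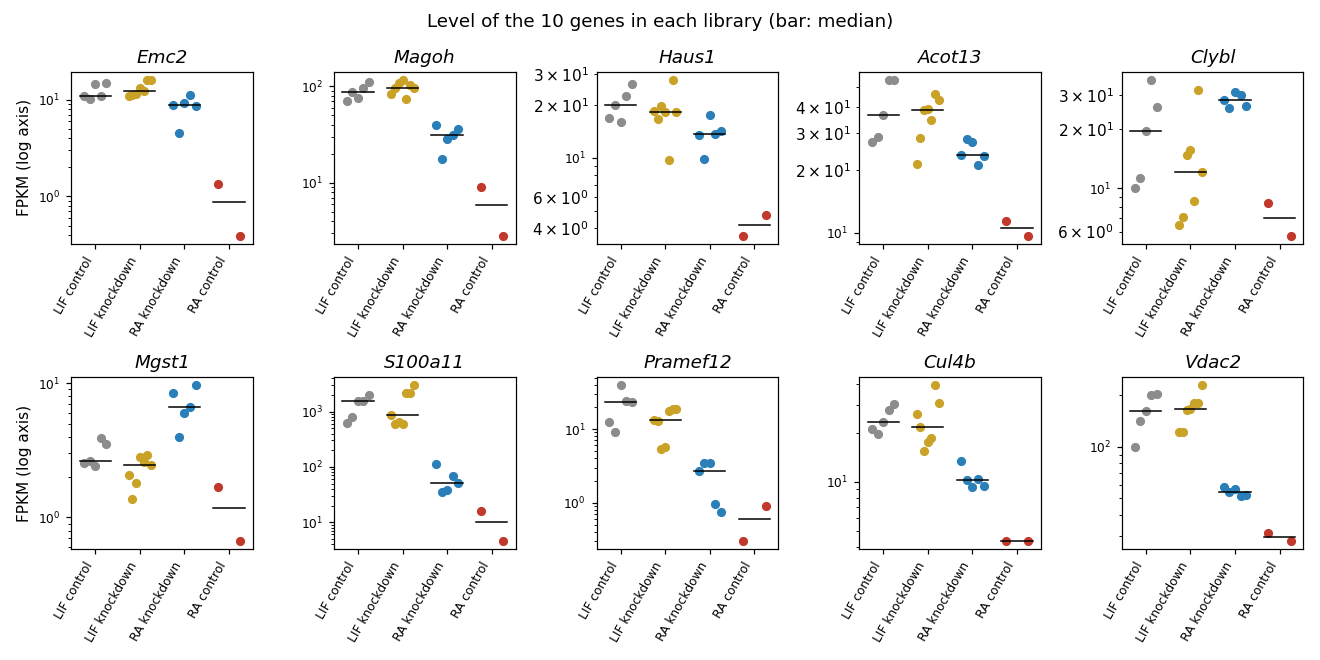
FPKM of each of the 10 genes on a log axis, with 1 point per library: LIF-withdrawal controls (5), LIF-withdrawal knockdowns (7), RA knockdowns (5) and RA controls (2), and a bar at the median of each. The RA controls are the lowest points in 7 panels. In Magoh, S100a11, Pramef12, Cul4b and Vdac2 the RA knockdowns also lie below every LIF-withdrawal library.

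The answer to the question of position therefore differs with the libraries compared. Both controls lay below all 17 other libraries in Emc2, Magoh, Haus1, Acot13, S100a11, Cul4b and Vdac2. They lay below the 5 RA knockdowns in 9 of 10 genes, all but Pramef12 (15.8% of the entries tested), which follows from how the genes were chosen. They lay below the 12 LIF-withdrawal libraries in 8 of 10 genes, all but Clybl and Mgst1 (20.5% of the entries tested). This count uses the same 2 control libraries as the choice and, through the shared estimate of spread, the choice also used the LIF-withdrawal libraries, so it is not independent of it. On the log2(FPKM + 1) scale, the gap from the higher control to the lowest other library was 1.21 in Emc2, 1.11 in S100a11, 0.96 in Cul4b, 0.90 in Haus1, 0.87 in Magoh, 0.83 in Acot13 and 0.70 in Vdac2. It was negative in the others, at -0.12 in Pramef12, -0.18 in Mgst1 and -0.34 in Clybl. The higher control sets this gap: without control 1 it was 1.97 in Emc2, 2.28 in Magoh, 2.70 in S100a11, 0.51 in Mgst1 and 0.16 in Clybl, and without control 2 it was 0.42 in Pramef12.

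**Figure D2:**
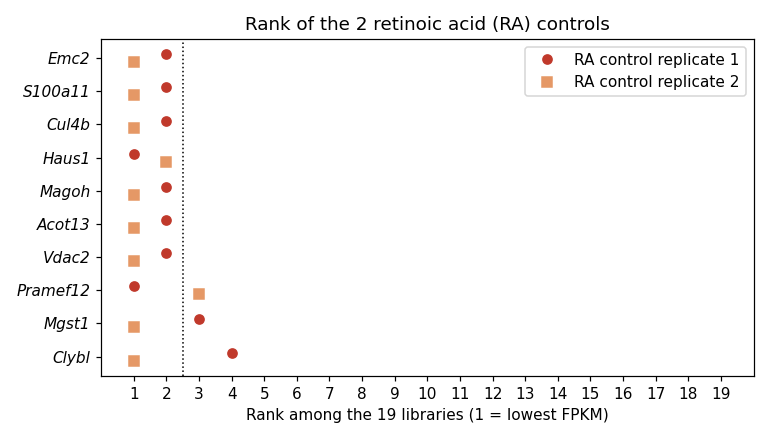
Rank of RA control 1 (circles) and RA control 2 (squares) among the 19 libraries for each gene, where 1 is the lowest FPKM. Genes are ordered by the gap between the higher control and the lowest other library. In the upper 7 genes the controls take ranks 1 and 2 (left of the dotted line), and in Pramef12, Mgst1 and Clybl the higher control has rank 3, 3 and 4.

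The RA knockdowns were not at the LIF-withdrawal level in most of the genes. The 5 knockdowns lay below all 12 LIF-withdrawal libraries in Magoh, S100a11, Pramef12, Cul4b and Vdac2 (5 of 10 genes, against 13.5% of the entries tested), above all of them in Mgst1, and overlapped them in Emc2, Haus1, Acot13 and Clybl. The choice used these knockdown libraries and, through the shared estimate of spread, the LIF-withdrawal libraries, so this count is not independent of it. The 5 genes below were the same number in each of the 2 rescalings tried. Without 1 knockdown library at a time the count was 5 or 6. In bulk RNA, fewer cells of a type and less RNA per cell cannot be told apart. The 5 knockdown libraries were not equal either: shNr2f1as replicate 2 was the lowest of the 5 in 6 of 10 genes, Emc2, Magoh, Haus1, Clybl, Mgst1 and S100a11. Between the controls, control 2 was the lower in 8 of 10 genes, all but Haus1 and Pramef12. The shares over all entries for the lowest knockdown and the lower control are not given, so neither count is read as a trait of the 10 genes.

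Both RA controls together were at an extreme more often than any other labelled pair of libraries. They were the lowest of 19 in 1042 of the 14942 entries and the highest in 925 (6.19%). The other 6 groups of 2 libraries were the lowest pair in 0.616% (shNr2f1as) to 2.48% (shEvx1as) of entries and the highest pair in 0.783% (shNr2f1as) to 4.48% (the libraries labelled shPou3f3os). The RA controls therefore held many entries at either end of the series, and 7 of the 10 genes are from the low end. In 6 of those 7 the lowest other library is an RA knockdown, so a large gap follows from how the genes were chosen, and its rank is given as a description. Ranked by the gap among all 14942 entries, Emc2 was at place 3, S100a11 at 4, Cul4b at 7, Haus1 at 8, Magoh at 10, Acot13 at 13 and Vdac2 at 22, while Pramef12, Mgst1 and Clybl were at 2197, 2714 and 4365.

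**Figure D3:**
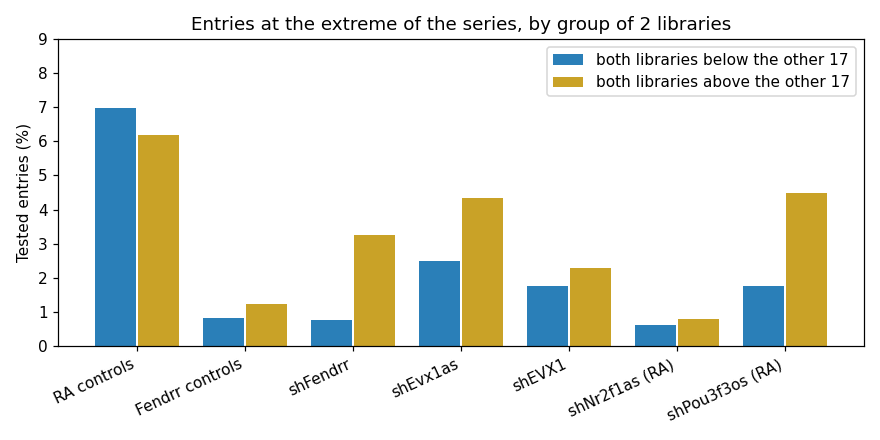
Percentage of the 14942 entries tested in which both libraries of a group are below (blue) or above (yellow) the other 17 libraries, for the 7 groups of 2 libraries. The RA controls have the tallest bars on both sides, at 6.97% and 6.19%.

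The values that chose the genes were the following. By limma, on log2(FPKM + 1) with adjustment over all entries, all 10 genes were called higher in shNr2f1as (0.422% of entries), 4 in shSox21os (0.0468%) and 9 in the libraries labelled shPou3f3os (1.6%), each against the same 2 controls. Emc2, Haus1 and Acot13 were called in all 3 comparisons and the other 7 genes in 2. The log2 differences in shNr2f1as, shSox21os and shPou3f3os were 2.01, 2.51 and 2.57 for Emc2, 2.15, 2.25 and 2.48 for Magoh, and 2.73, 2.03 and 2.63 for S100a11. The smallest were those of Vdac2, at 0.90, 0.91 and 0.79, and that of Pramef12 in shPou3f3os, at 0.23. Just inside the threshold were Mgst1 and S100a11. Just outside were Ddb1, at 212 and 183 FPKM in the controls and 261 to 294 FPKM in the knockdowns, and Syt13, at 3.50 and 5.29 FPKM against 7.81 to 14.05 FPKM. Membership depends on the shared estimate of spread. With the 7 RA libraries modelled alone by limma, none of the 10 genes was called in 2 or 3 comparisons. Over all entries, 0, 7 and 0 were called in shNr2f1as, shSox21os and shPou3f3os in that model. All 10 genes had an unadjusted p under 0.05 in at least 2 comparisons, and 2566, 1607 and 2906 of all entries had one in the 3 comparisons. Membership was also lost by some or all of the genes when control 2, either library labelled shPou3f3os or either shNr2f1as library was left out. It was not lost when control 1 was left out. Each of these fits leaves 1 library in a group, and the calls over all entries moved in them as well.

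The comparisons between groups other than the RA controls gave no called change in these genes. Their standard errors still include the distance between the RA controls, because the spread of each gene was estimated over the whole series. In shFendrr against its controls, 0 of the 10 genes were called by limma (0.147% of entries were). Of the 10, 0 had an unadjusted p under 0.05 by limma, beside 1051 of all entries, and the smallest adjusted p was 0.767. Clybl had the largest difference there, at 31.7 and 12.1 FPKM in the 2 knockdown libraries and 35.9 and 26.1 FPKM in their controls (log2 difference -0.61 ± 0.33 SE, adjusted p = 0.767 by limma). The replicates of shFendrr lay further apart in Clybl than the groups. Without shFendrr replicate 1, which leaves 1 knockdown library, the log2 change was -1.27. S100a11 stood at 2202 and 3028 FPKM in shFendrr against 1562 and 2015 FPKM, and its difference did not pass (log2 difference 0.54 ± 0.53 SE, adjusted p = 0.866 by limma).

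In shEvx1as and in shEVX1, each with 2 libraries against 1 control, 0 of the 10 genes were called (0.00669% of entries in each, limma). None had an unadjusted p under 0.05 in shEvx1as (654 of all entries had) and 2 had in shEVX1 (496 of all entries had). These were Pramef12, at 5.41 and 5.67 FPKM against 9.23 FPKM (log2 difference -0.65 ± 0.21 SE, adjusted p = 1 by limma), and Acot13, at 38.6 and 39.3 FPKM against 28.8 FPKM (log2 difference 0.42 ± 0.18 SE, adjusted p = 1 by limma). The counts under 0.05 in shEvx1as and shEVX1 rest on the spread shared across the series. With each experiment modelled alone by limma, more of the 10 genes were under 0.05 unadjusted in both, and none was called. The median log2 difference of the 10 genes was -0.07 in shFendrr, 0.05 in shEvx1as and 0.08 in shEVX1, beside 0.00, 0.05 and 0.05 over all entries. The day 6 experiment had 1 library per arm and no test. There, Clybl stood at 8.62 FPKM in shLhx1os against 19.6 FPKM and Pramef12 at 17.8 against 39.8 FPKM, ratios of 0.441 and 0.448. These 2 of 10 genes had a difference of at least 2-fold, against 13.4% of the 9015 entries that reached 5 FPKM in either library, and the other 8 ratios ran from 0.611 (Haus1) to 1.44 (S100a11).

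Within the RA experiment, shNr2f1as and the libraries labelled shPou3f3os could be compared without the means of the controls, though the shared spread still included them. None of the 10 genes was called (0.00669% of entries, limma), and 1 had an unadjusted p under 0.05 (820 of all entries had). This was Pramef12, at 2.69 and 3.42 FPKM in shNr2f1as and at 0.953 and 0.740 FPKM in the other 2 libraries (log2 difference 1.13 ± 0.17 SE, adjusted p = 0.211 by limma), with no overlap between the groups. For the other 9 genes the difference ran from -0.55 (Emc2) to 0.24 (Cul4b), each with an adjusted p of at least 0.884. The standard errors, from 0.12 (Vdac2) to 0.53 (S100a11), set what could be seen, so these values do not show that the 2 knockdowns were alike.

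The partners of the 10 genes in complexes and families were read as 10 lists holding 138 genes, of which 135 were in the table and 111 passed the filter on low values. Both RA controls were the lowest of 19 in 17 of the 111 partners (15.3%, beside 6.97% of all entries) and the highest in 9 (8.11%, beside 6.19%). Against the RA controls, 1 partner of the 111 was called higher in shNr2f1as (0.422% of all entries) and none lower (0.254%). In that comparison 31 had an unadjusted p under 0.05 by limma, beside 2699 of the 14942 entries. In shSox21os 0 were called by limma (0.0468% of all entries higher, 0.0201% lower) and 20 had an unadjusted p under 0.05, beside 1706 of all entries. In the libraries labelled shPou3f3os 31 had an unadjusted p under 0.05 by limma, beside 3109 of all entries. Of the 111, 3 were called higher there (1.6% of all entries) and 3 lower (0.716%). None of these 6 calls was made without either of the 2 libraries, without control 2 or with the RA libraries modelled alone. The median log2 difference of the 111 partners was 0.02, 0.02 and 0.05 in the 3 comparisons, beside 0.04, 0.03 and 0.04 over all entries.

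For the complexes of Emc2, Magoh and Haus1, the count of partners with both controls lowest was 0 of 27, beside 6.97% of all entries, too few genes to set them apart from that share. None of the other 9 subunits of the ER membrane protein complex, 10 exon junction and decay factors or 8 augmin genes had both controls lowest. None of the 27 was called in any of the 3 comparisons by limma. Of them, 7 had an unadjusted p under 0.05 in at least 1, and the share of all entries that had is not given. For Emc2's partners the median log2 difference was -0.06, -0.04 and 0.05 in shNr2f1as, shSox21os and shPou3f3os. For those of Magoh it was -0.23, -0.13 and -0.12, and 4 of the 10, Rbm8a (the direct partner of Magoh), Upf3a, Rnps1 and Acin1, had both controls as the highest of the 19 libraries. Magohb, the close paralogue of Magoh, stood at 12.5 and 10.5 FPKM in the controls and 6.43 to 13.8 FPKM in the RA knockdowns, so the 2 paralogues were unlike in position.

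Among 14 genes read for S100a11, S100 genes and annexins, 6 had both controls lowest (beside 6.97% of all entries, a difference that was not tested). These were the S100 genes S100a6 and S100a13 and the annexins Anxa1, Anxa5, Anxa6 and Anxa7, and none of the 14 had both controls highest. Annexins are proteins that S100a11 binds and not its family. The median log2 difference of the 14 was 0.72 in shNr2f1as, 0.54 in shSox21os and 0.57 in shPou3f3os, but none was called by limma. Of the 14, 12 had an unadjusted p under 0.05 in at least 1 comparison, and the share of all entries that had is not given. S100a6, a calcium-binding protein of the S100 family, stood at 9.40 and 3.14 FPKM in the controls and 10.4 to 19.8 FPKM in the knockdowns. It stood at 57.9 to 497 FPKM after LIF withdrawal, the same 3 steps as S100a11 at a lower level.

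In the ubiquitin ligase of Cul4b, 4 of 21 genes had both controls lowest: Cul4a, the paralogous scaffold, Ddb1, the adaptor that binds it, Dcaf12 and Cand1. Cul4a stood at 19.2 and 18.8 FPKM in the controls and 19.6 to 22.9 FPKM in the knockdowns, a far smaller distance than in Cul4b. Ddb1 was called in the libraries labelled shPou3f3os (log2 change 0.56 ± 0.10 SE, adjusted p = 0.0283 by limma). The adjusted p of Ddb1 in this comparison ran from 0.00757 to 0.168 over the alternative settings.

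Among mitochondrial outer membrane and import genes, the partners of Vdac2, 2 of 16 had both controls lowest: Tspo and Tomm20, a receptor of the protein import pore. Tomm20 was the only partner called in 2 comparisons. It stood at 19.1 and 18.7 FPKM in the controls, 30.6 to 39.2 FPKM in the RA knockdowns and 45.1 to 70.5 FPKM after LIF withdrawal, so it too formed 3 steps. It was called in shNr2f1as (log2 change 0.83 ± 0.16 SE, adjusted p = 0.0458 by limma) and in the libraries labelled shPou3f3os (0.89 ± 0.16, adjusted p = 0.0283). Over the alternative settings its adjusted p ran from 0.0379 to 0.181 in the first and from 0.0210 to 0.173 in the second. In shNr2f1as the call was lost when any 1 of the 4 libraries was left out. Tomm40, the pore itself, was called lower in the libraries labelled shPou3f3os (log2 change -0.75), as was Slc25a5, a carrier of ATP and ADP (-0.55). Vdac1, the main paralogue of Vdac2, stood at 119 and 115 FPKM in the controls and 115 to 132 FPKM in the knockdowns, and Vdac3 at 7.48 and 3.88 against 5.36 to 6.92 FPKM, both with overlap.

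The partners of the metabolic genes were mixed. Of 11 genes linked to propionate and vitamin B12, 3 had both controls lowest, Mut, Mmachc and Mmadhc, and Mmadhc, which directs vitamin B12 to its enzymes, was called in the libraries labelled shPou3f3os (5.34 and 3.67 FPKM in the controls, 8.14 to 15.3 FPKM in the knockdowns, log2 change 1.23 ± 0.23 SE, adjusted p = 0.0324 by limma). Its adjusted p there ran from 0.0127 to 0.202 over the alternatives. Of 8 acyl-CoA thioesterases, the family of Acot13, 1 had both controls lowest, and Acot7 was called lower in the libraries labelled shPou3f3os (log2 change -0.69). Of 13 glutathione transferases and related membrane enzymes, the relatives of Mgst1, 1 had both controls lowest and none was called by limma. Of the 13, 2 had an unadjusted p under 0.05 in at least 1 comparison, and the share of all entries that had is not given. Only 1 relative of Pramef12 passed the filter, and it was not called.

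**Figure D4:**
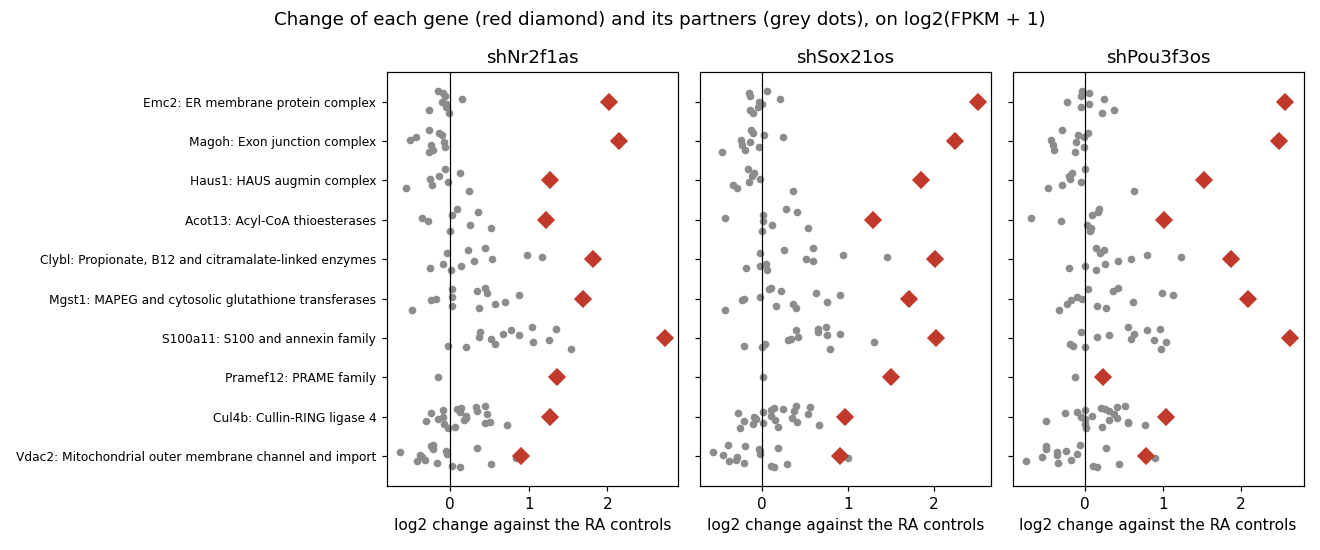
Log2 difference from the RA controls on the log2(FPKM + 1) scale, for each of the 10 genes (red diamonds) and each partner in its list (grey dots), in shNr2f1as, shSox21os and shPou3f3os. The diamonds were chosen for lying to the right. The exon junction dots of Magoh have a median of -0.23, -0.13 and -0.12, and the S100 and annexin dots a median of 0.72, 0.54 and 0.57.

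Neighbouring or overlapping entries were read for 7 of the 10 genes, all but Mgst1, S100a11 and Cul4b. Tdp2 begins 170 bases from Acot13 and stood at 6.71 and 9.51 FPKM in the controls and 6.84 to 8.81 FPKM in the RA knockdowns. Comtd1, which overlaps an end of Vdac2, stood at 7.77 and 13.2 FPKM in the controls and 6.68 to 10.4 FPKM in the knockdowns. Neither had both controls below the 5 knockdowns. Inside Clybl, 1700108J01Rik was listed at 0 in every library, and inside Pramef12, D530049N12Rik did not exceed 0.196 FPKM.

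The genes most like the 10 in position, ranked by the same gap, were led by ribosomal protein genes. Rps4x, on the X chromosome, stood at 27.2 and 15.6 FPKM in the controls, 114 to 370 FPKM in the RA knockdowns and 524 to 1234 FPKM after LIF withdrawal, a gap of 2.03. Rps25 stood at 131 and 20.9 FPKM, 266 to 620 FPKM and 838 to 1488 FPKM, a gap of 1.01. Both share sequence with processed pseudogenes, in 72.2% and 26.2% of windows, so their levels are uncertain. The next were Gpx8 (0.97), an ER peroxidase, Slc7a11 (0.90), the cystine importer, Vwa5a (0.87), Snrpb2 (0.78), a protein of the U2 splicing particle, Gtf3c3 (0.76), Chrnb1 (0.76), Myadm (0.75) and Znrd1as (0.72). At the other end, where both controls were the highest of 19, the largest gaps were those of Hoxb5 (1.44), Serpinf1 (1.43), Foxe3 (1.30), Prdm12 (1.19) and Pax2 (1.11), mostly developmental transcription factors. Hoxb5 stood at 13.02 and 15.3 FPKM in the controls, 1.26 to 4.15 FPKM in the RA knockdowns and at most 0.405 FPKM after LIF withdrawal.

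Base composition and other measures moved with the position of the controls. The GC content of the 10 transcripts ran from 41.0% (Cul4b) to 49.9% (Acot13), with a median of 46.1%, against a median of 50.5% over the tested entries that could be matched (83.1%). The median was 46.8% for the other entries with both controls lowest and 54.3% for those with both highest. The summed level of 11 tested replication-dependent histone genes and 1 below the filter, whose messages mostly lack a poly(A) tail, was 781 and 855 FPKM in the RA controls and 534 to 573 FPKM in the RA knockdowns. In 4 of the 11 tested, both controls lay above the 5 RA knockdowns, beside 12.6% of all entries. The part of these measures in the low values of the 10 genes was not tested.

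Some markers of other cells were lower in the same libraries, and each count of genes with both controls below the 5 knockdowns stands beside 15.8% of all entries. The summed level of 8 neuron genes was 113 and 110 FPKM in the RA controls and 127 to 213 FPKM in the RA knockdowns. Of 7 tested, both controls lay below the knockdowns in 1 (Stmn2) and above them in 1. These counts do not set the list apart from the share of all entries, which is 12.6% for controls above. The lists of primitive streak and mesoderm (6.30 and 5.28 against 4.60 to 16.3 FPKM) and of endoderm (9.44 and 12.7 against 4.60 to 12.02 FPKM) overlapped. Both controls lay below the knockdowns in 1 of 10 tested genes of the first list and above in 0. In the second they lay below in 0 of 5 and above in 1. Krt8 and Krt18, keratins of simple epithelium and trophoblast, stood at 17.3 and 8.93 FPKM and at 52.0 and 28.9 FPKM in the controls, against 23.8 to 56.6 FPKM and 55.4 to 82.0 FPKM in the RA knockdowns, and the summed level of that list of 8 was 84.4 and 84.9 against 114 to 174 FPKM. They were the 2 of its 7 tested genes with both controls below the knockdowns. Of 6 tested fibroblast and feeder genes, 3 (Col1a1, Col1a2 and Pdgfra) had both controls below the knockdowns, the list's sum was 10.3 and 11.7 against 19.6 to 48.3 FPKM, and Lum was listed at 0 in all 7 RA libraries. Of 12 housekeeping genes, Eef1a1, Gusb, Ppia and Ywhaz had both controls below the knockdowns, and the list's sum was 17070 and 16941 against 17585 to 20633 FPKM. The part of these cells and of these abundant genes in the low values of the 10 genes was not tested.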

How the data were processed

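Poly(A) RNA was sequenced in 19 libraries, made with a stranded kit per the labels' protocols. The authors deposited FPKM values, 38424 entries by 19 libraries. The tools CASAVA and TopHat2 (2.0.11) and the builds mm9 and mm10 are listed, per the submitters' processing notes. Quantifier, annotation and strand setting: not given in the sources used here. Positions were taken as mm9, because only 5.15% of 18910 matched coding symbols lay within 1000 bp of their GRCm38 position, and starts were converted to 1-based. The members and the partner, marker and motif lists were chosen with earlier results of these data known.

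Values were analysed as log2(FPKM + 1), which understates differences of low genes, for entries that reached 1 FPKM in 2 or more libraries (14942, which include all 10 genes). In R 4.3.3, limma 3.58.1 fitted 12 group means across the 19 libraries (trended variance prior, two-sided moderated test, Benjamini-Hochberg adjustment at 0.05). Residual degrees of freedom numbered 7, all from the 7 groups with 2 libraries. The 5 single libraries were assumed to vary like the rest. The fit was checked on simulated data. Read counts were not used here. Steps between low values gave a relative depth of 0.871 to 1.18, but only 22.5 to 28.2% of entries lay at the step, so no counts were recovered and no sampling intervals are given. Named beside the 10 genes were partners called in 2 or more RA comparisons, the 10 nearest genes by the gap with both controls lowest and the 5 with both highest (predicted, unnamed and pseudogene entries left out), and overlapping entries. Other genes, including partners called once, paralogues, nearby genes and markers, were chosen after their values were seen. Alternatives were another pseudocount, other filters, rescaling, a prior without a trend, separate models, a replicate block and leaving out libraries. Sequences came from RefSeq (GRCm38.p6) and transcripts from GENCODE M21.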

Additional observations from a re-analysis of the deposited data

How the results depend on the processing

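The number of the 10 genes with both RA controls lowest was 7 under rescaling to the same total or the same 75th percentile, under the 5 FPKM filter and without shNr2f1as replicate 2. It was 9 among the 7 RA libraries alone, 9 without control 1 and 8 without control 2. The same number over all entries was 1042. It was 2363 among the RA libraries alone, 1950 to 2247 without 1 control and 1278 without shNr2f1as replicate 2. For the 111 partners it was 17, then 26 among the RA libraries alone and 19 to 28 without 1 of these libraries. The alternatives at shNr2f1as replicate 2, at a pseudocount of 0.1 for the gap and for the position of the RA knockdowns among the LIF-withdrawal libraries were chosen after the data were seen.

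The genes called in shFendrr numbered 0 with all libraries, and this count moved when 1 library was left out. Partners called in shNr2f1as numbered 1. They numbered 3 with a pseudocount of 0.1, 0 with the filter of any value above 0, 3 with the 5 FPKM filter, 0 without the variance trend, 2 when rescaled to the 75th percentile, 0 with the experiment modelled alone and 0 to 7 without 1 library. Partners called in the libraries labelled shPou3f3os numbered 6, then 2 with the filter of any value above 0, 0 with the experiment modelled alone and 0 to 18 without 1 library (18 without control 1). In shSox21os they numbered 0, and 0 to 1 without 1 library. The calls over all entries moved in most of these settings as well. In shNr2f1as they numbered 101, then 123 with a pseudocount of 0.1, 74 with the filter of any value above 0 and 54 without the variance trend. They numbered 135 at the 75th percentile, 0 with the experiment modelled alone and again 101 with the 5 FPKM filter. In shPou3f3os they numbered 346, then 139 with the filter of any value above 0 and 0 modelled alone. They also moved without 1 library. Why the counts moved was not tested. The log2 difference of Pramef12 in shPou3f3os was 0.23, turned to -0.039 without control 1, and ran from -0.039 to 0.50 without 1 library. Over all entries, the calls in shPou3f3os split into 239 higher and 107 lower, into 348 and 76 when rescaled to the same total and into 217 and 194 at the 75th percentile. In shNr2f1as they split into 63 and 38, and into 73 and 62 at the 75th percentile.

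The labels do not say that a replicate number pairs libraries. Same-numbered deviations correlated at 0.35 in the Fendrr experiment, 0.30 between RA controls and shNr2f1as, -0.02 between RA controls and shPou3f3os and -0.05 between shNr2f1as and shPou3f3os, so the numbers were not taken as pairs. With the replicate block, 4 partners were called in shNr2f1as and 9 in shPou3f3os, the calls over all entries went from 101 to 331, from 346 to 813 and, in shFendrr, from 22 to 30, and none of the 10 genes was called in shFendrr. With 2 controls and no read counts, values under about 1 FPKM, such as those of Emc2, Mgst1 and Pramef12 in a control, are the least precise.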
